A study of Mus musculus with 7 samples.

Results

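Oligodendrocyte precursor and differentiation genes were examined as a set of 10, given by name and matched by symbol in the count table of mouse hippocampus: Pdgfra, Cspg4, Lhfpl3, Olig1, Olig2, Sox10, Nkx2-2, Gpr17, Enpp6 and Myrf. All 10 were among the 21965 genes of the table and all 10 passed the filter on low counts, as did 14417 genes in total. Of its 7 libraries, 3 are blank controls (Control) and 4 come from NIHHL mice. The term stands for noise-induced hidden hearing loss, a deficit that a test of the hearing threshold does not show. The NIHHL mice were exposed to noise of 110 dB for 2 h and the hippocampus was taken 1 month after induction. The labels give no strain, genotype, sex or age, no sham procedure for the blank controls, nor whether a library stands for 1 animal, and p-values therefore measure the spread among the libraries, which may be technical. RNA came from bulk hippocampal tissue, so fewer cells of a type and less RNA per cell cannot be told apart.

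Oligodendrocytes, the cells that wrap axons in myelin, arise in the adult brain from precursor cells that stay spread through grey and white matter. Precursors divide in response to platelet-derived growth factor and carry its alpha receptor and the proteoglycan NG2 on their surface. When a precursor commits to differentiation it loses these surface proteins, passes through a short stage marked by Gpr17 and Enpp6, and switches on Myrf, which together with Sox10 drives the transcription of myelin genes. The basic helix-loop-helix factors Olig1 and Olig2, Sox10 and the homeodomain factor Nkx2-2 act across these steps.

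The promoters of 6 of the 10 genes were in the RefSeq promoter table (build GRCm38.p6), and 3 of them are shown because they differ widely in base composition. They are the windows of 250 bases before the RefSeq start of Pdgfra and Lhfpl3, from the precursor stage, and of Enpp6, from the differentiating stage, which was among the genes whose groups did not overlap. The window of Pdgfra is chr5:75152001-75152250, that of Lhfpl3 chr5:22745804-22746053 and that of Enpp6 chr8:46986637-46986886, all on the plus strand and written 5′ to 3′. Capitals mark the E-box CAGCTG, a site type of basic helix-loop-helix factors.
Pdgfra: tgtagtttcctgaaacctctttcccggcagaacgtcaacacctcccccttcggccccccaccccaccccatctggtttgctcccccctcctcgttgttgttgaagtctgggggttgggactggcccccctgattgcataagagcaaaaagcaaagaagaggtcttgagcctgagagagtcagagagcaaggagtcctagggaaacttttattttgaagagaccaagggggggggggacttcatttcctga
Lhfpl3: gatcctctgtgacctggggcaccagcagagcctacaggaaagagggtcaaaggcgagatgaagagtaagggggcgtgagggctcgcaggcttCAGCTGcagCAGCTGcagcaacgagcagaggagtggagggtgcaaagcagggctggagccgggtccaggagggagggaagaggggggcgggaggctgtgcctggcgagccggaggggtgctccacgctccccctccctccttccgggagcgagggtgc
Enpp6: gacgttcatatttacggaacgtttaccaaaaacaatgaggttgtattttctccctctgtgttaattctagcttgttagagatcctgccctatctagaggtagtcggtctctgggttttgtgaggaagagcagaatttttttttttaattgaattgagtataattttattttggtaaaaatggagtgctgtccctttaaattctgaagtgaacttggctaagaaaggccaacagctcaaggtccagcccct

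The Enpp6 window had a GC content of 38.4%, the Pdgfra window 54.4% and the Lhfpl3 window 67.2%, beside a median of 52.4% over all promoter windows. The windows were searched on both strands for CAGCTG, which reads the same on both, for TATAAA, the TATA box, and for ACAAAG, a motif bound by SOX factors. The E-box occurred 2 times in the Lhfpl3 window and in none of the other 5 members' windows, and 13.0% of all 32851 windows of the same length held it. ACAAAG occurred in none of the 6 members' windows and in 16.5% of all windows. TATAAA occurred 1 time in the window of Olig2 and in 12.4% of all windows. No match says only that these letters are not in these windows.

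Library depth was lowest in Control replicate 1, with a total of 14871376 counts, and highest in Control replicate 2, with 24515146, and 16292 to 16825 genes had a count in a library. The hippocampal neuron markers were present in every library, with 10 of 10 tested and a summed level of 763 to 874 CPM (counts scaled to library size with edgeR's trimmed mean of M values) in Control and 784 to 914 in NIHHL. Choroid plexus markers, from tissue that adjoins the hippocampus, summed to 205 to 7146 CPM in Control and 669 to 8704 CPM in NIHHL, and the groups overlapped. The libraries also differed in how a gene's level related to its length: the Spearman correlation across genes, which are not independent replicates, between the deviation from the mean of all libraries and the exon length was most negative in Control replicate 2, at -0.58. It was most positive in NIHHL replicate 4, at 0.52, with Control replicate 1 next, at 0.45.

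Across the 10 genes the NIHHL mean was slightly higher than the Control mean, by log2 fold changes of 0.01 for Cspg4 to 0.20 for Sox10 with all 7 libraries, and no gene passed the test. The direction was not stable for 3 of them: Cspg4 turned to -0.01 when each library's length trend was removed. Without Control replicate 2 Cspg4 was at -0.07 and Gpr17 at -0.03. Cspg4 was also at -0.04 without Control replicate 3 and at -0.02 without NIHHL replicate 4, where Lhfpl3 was at -0.01. The median log2 fold change of the 10 was 0.12, beside -0.00045 for all 14417 genes tested, and it was 0.07 without Control replicate 2. A mean above that of Control was found for 10 of the 10, where it was found for 49.9% of all genes, and for 8 of 10 without Control replicate 2. The 10 genes share their cells and libraries and are not independent of each other.

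By edgeR's quasi-likelihood test 0 of the 10 were called at an adjusted p under 0.05, where 0% of all genes were called, and each had an adjusted p of 0.996 or above. At an unadjusted p under 0.05 there was 1 gene of the 10, Sox10, against 523 genes or 3.63% of all. That count was 0 by DESeq2, and by edgeR it was 0 with either Control replicate 2 or NIHHL replicate 3 left out. With each library's length trend removed it was 3, namely Olig1, Sox10 and Myrf. It was 1 without Control replicate 1, where the gene was Myrf, and 1 with a replicate block, where it was Olig1. DESeq2 called 4 of the 18177 genes to which it gave an adjusted p, or 0.0220%, and limma-voom called 0 of all genes. None of the 10 was called by either tool. The widest 95% interval of the fold change, that of Nkx2-2, ran from 0.820-fold to 1.41-fold, and the intervals of the other 9 genes lay between 0.845-fold and 1.36-fold.

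**Figure D1:**
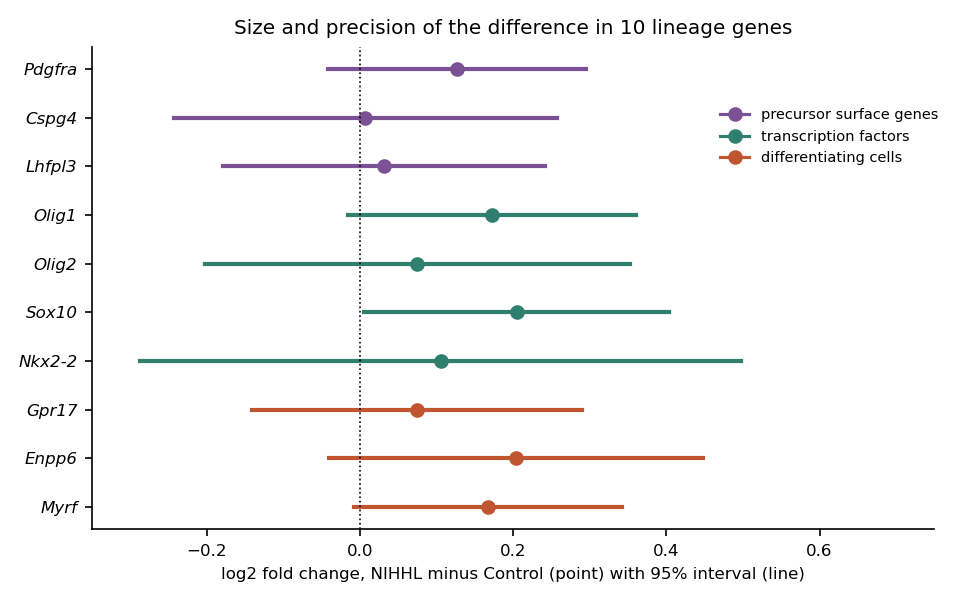
Log2 fold change (horizontal axis, NIHHL minus Control) of each of the 10 genes from edgeR's fit, with its 95% interval as a line and the genes coloured by role. The 10 points lie between 0.01 and 0.20, and the interval of Sox10, from 0.01 to 0.40, is the 1 interval that does not include 0.

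The 3 precursor surface genes had a median log2 fold change of 0.03, and differences between the role groups were not tested. Pdgfra, the receptor through which platelet-derived growth factor keeps precursors dividing, stood at 70.2, 62.3 and 66.9 CPM in Control replicates 1 to 3 and at 74.1, 67.2, 70.03 and 78.6 CPM in NIHHL replicates 1 to 4. The ranges of the groups overlapped, with 2 of the 4 NIHHL libraries above every Control library. The means were 66.4 ± 3.98 CPM in Control and 72.5 ± 4.98 CPM in NIHHL (SD, n = 3 and n = 4), a log2 fold change of 0.13 (SE 0.08).

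Cspg4 encodes the NG2 proteoglycan, which precursors share with pericytes, the mural cells of capillaries. It stood at 17.6, 13.2 and 14.01 CPM in Control replicates 1 to 3 and at 14.8, 14.3, 14.98 and 15.7 CPM in NIHHL replicates 1 to 4. Control replicate 1 was the highest of the 7 libraries and Control replicate 2 the lowest, and the NIHHL libraries all lay between them. The means were 14.9 ± 2.34 CPM in Control and 14.9 ± 0.570 CPM in NIHHL, with a log2 fold change of 0.01 (SE 0.11).

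Lhfpl3, a multi-pass membrane protein whose transcript is enriched in precursors, stood at 21.6, 22.3 and 21.2 CPM in Control and at 19.9, 23.6, 20.9 and 24.4 CPM in NIHHL. The 3 Control libraries were tightly grouped and the 4 NIHHL libraries fell on either side of them, 2 above and 2 below. The means were 21.7 ± 0.582 and 22.2 ± 2.13 CPM and the log2 fold change 0.03 (SE 0.10). An antisense transcript, A930003O13Rik, covers 567 bases or 17.6% of the exons of Lhfpl3, and the sources used here do not say whether the counting used strand, so reads there cannot be assigned.

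The lineage transcription factors had a median log2 fold change of 0.14. Olig1 and Olig2 are related basic helix-loop-helix factors that lie 41094 bases apart on chromosome 16 (GRCm38, Olig2 at 91225457 to 91228677 and Olig1 at 91269772 to 91271933, both on the plus strand). Olig1 stood at 91.4, 101.7 and 99.6 CPM in Control replicates 1 to 3 and at 114.6, 102.4, 123.2 and 99.6 CPM in NIHHL replicates 1 to 4. NIHHL replicates 1, 2 and 3 lay above all Control libraries and NIHHL replicate 4 lay within their range. The log2 fold change was 0.17 (SE 0.09), with means of 97.6 ± 5.48 and 110.0 ± 10.999 CPM, and it was 0.11 without NIHHL replicate 3.

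Olig2, which specifies the lineage, stood at 26.8, 20.98 and 20.7 CPM in Control and at 25.4, 19.999, 27.03 and 23.2 CPM in NIHHL. Its neighbour's order of libraries was not repeated: Control replicate 1 was the second highest library for Olig2 and the lowest for Olig1. The means of Olig2 were 22.8 ± 3.44 and 23.9 ± 3.04 CPM and its log2 fold change was 0.07 (SE 0.13). Single libraries moved this value widely: leaving out Control replicate 1 raised it to 0.20 and leaving out NIHHL replicate 2 to 0.15. It was 0.022 with Control replicate 2 left out, 0.0084 with Control replicate 3 left out, 0.044 with NIHHL replicate 1 left out and 0.011 with NIHHL replicate 3 left out. The ratio of Olig1 to Olig2 CPM within a library was 3.41 in Control replicate 1 and 4.28 to 5.12 in the other 6 libraries, with no difference between the groups beyond their spread (exact two-sided permutation test, p = 0.657).

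Sox10, an HMG-box factor needed for terminal differentiation, stood at 39.8, 33.9 and 41.5 CPM in Control replicates 1 to 3 and at 42.4, 41.7, 48.5 and 44.5 CPM in NIHHL replicates 1 to 4. The groups did not overlap, with NIHHL above Control, but the lowest NIHHL library exceeded the highest Control library by 0.285%, less than the counting error of 3.30% to 4.11% of a single library. The means were 38.4 ± 4.02 and 44.3 ± 3.05 CPM. The log2 fold change of 0.20 (SE 0.09) had an adjusted p = 0.996 by edgeR, and it was 0.12 without Control replicate 2.

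Nkx2-2, a homeodomain factor of the precursor to oligodendrocyte transition, was the lowest of the factors and rested on 54 to 93 counts per library. It stood at 3.64, 3.40 and 4.39 CPM in Control and at 3.91, 4.88, 4.18 and 3.42 CPM in NIHHL. NIHHL replicate 2 was the highest library and NIHHL replicate 4 was nearly as low as the lowest Control library, so the groups overlapped over most of their range. The log2 fold change was 0.11 (SE 0.18), and the counting error of a single library was 10.4% to 13.6%. Leaving out NIHHL replicate 2 gave 0.014 and leaving out Control replicate 2 gave 0.026, whereas leaving out Control replicate 3 gave 0.22 and leaving out NIHHL replicate 4 gave 0.18. The antisense transcript Nkx2-2os shares 278 of its exon bases with Nkx2-2.

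**Figure D2:**
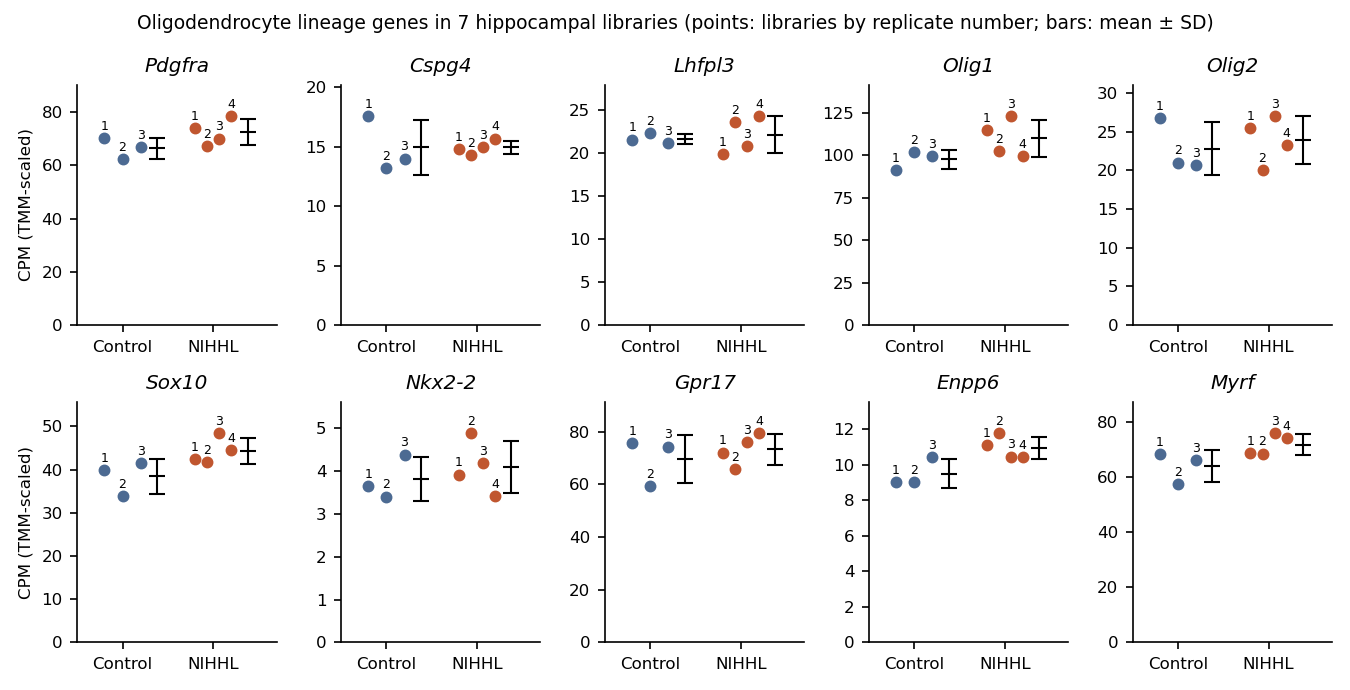
Level of each of the 10 genes in CPM (vertical axis, starting at 0) in the 3 Control and 4 NIHHL libraries, each point a library marked with its replicate number and each bar the mean ± SD of a group. The points of Sox10, Enpp6 and Myrf in NIHHL start just above the highest Control point, and those of the other 7 genes overlap.

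The genes of differentiating cells had a median log2 fold change of 0.17. Gpr17, a G protein-coupled receptor expressed while a precursor commits, stood at 75.5, 59.2 and 74.3 CPM in Control replicates 1 to 3 and at 71.98, 65.7, 76.04 and 79.4 CPM in NIHHL replicates 1 to 4. Apart from the low Control replicate 2 the Control libraries lay among the NIHHL libraries. The means were 69.7 ± 9.07 and 73.3 ± 5.87 CPM and the log2 fold change 0.07 (SE 0.10). Gpr17 shares 188 exon bases with Lims2 on the opposite strand, and its count in NIHHL replicate 3 was not a whole number, 1380.74. Lims2 stood at 8.68 to 10.4 CPM in the 7 libraries.

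Enpp6, a choline-specific phosphodiesterase of newly forming oligodendrocytes, stood at 9.03, 9.02 and 10.4 CPM in Control and at 11.1, 11.8, 10.5 and 10.4 CPM in NIHHL. All 4 NIHHL libraries lay above the Control libraries, the lowest by 0.174%, on 134 to 241 counts per library with a counting error of 6.44% to 8.64%. The means were 9.49 ± 0.805 and 10.9 ± 0.635 CPM, a log2 fold change of 0.20 (SE 0.11).

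Myrf, a membrane-anchored factor that is cleaved to release its DNA-binding part and is required for myelin gene transcription, stood at 68.5, 57.6 and 66.3 CPM in Control and at 68.8, 68.6, 76.1 and 74.3 CPM in NIHHL. The NIHHL libraries again lay above the Control libraries, the lowest by 0.168%, with NIHHL replicates 1 and 2 next to Control replicate 1 and NIHHL replicates 3 and 4 apart from them. The means were 64.1 ± 5.79 and 71.9 ± 3.82 CPM, and the log2 fold change of 0.17 (SE 0.08) was 0.10 without Control replicate 2.

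The groups thus did not overlap for 3 of the 10 genes, Sox10, Enpp6 and Myrf, all higher in NIHHL, where 5.20% of all genes did not overlap in either direction. A two-sided exact permutation test on the log2 CPM of each gene, over the 35 splits into 3 and 4 libraries, gave p = 0.0286 for each of these 3, the smallest value this design allows, and between 0.143 and 0.914 for the other 7 of the 10 genes tested. For these 3 the p-value restates that the groups did not overlap and is no further support. The p-values were not adjusted over the 10. The set was chosen with results of these data known, so the p-values are descriptive only. In all 3 genes the separation was smaller than the counting error of a library.

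A single Control library lay low across the set. Control replicate 2 was the lowest of the 7 libraries for 7 of the 10 genes and below the mean of all libraries for 9 of 10, with a mean deviation of -0.17 on the log2 scale. NIHHL replicate 3 was the highest for 4 genes, NIHHL replicate 4 for 3, NIHHL replicate 2 for 2 and Control replicate 1 for 1. The factors and the surface genes ordered the libraries differently: NIHHL replicate 3 deviated by 0.19 for the 4 factors and by -0.02 for the 3 surface genes, and NIHHL replicate 4 by -0.04 and 0.13. Control replicate 2 was also the library with the strongest negative length trend. With each library's length trend removed the median of the 10 genes was 0.12, as without that step, but single genes moved. Olig1 went from 0.17 to 0.22, Lhfpl3 from 0.03 to 0.06, Myrf from 0.17 to 0.15 and Cspg4 from 0.01 to -0.01. The part of the length trend in the low values of Control replicate 2 was not tested.

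**Figure D3:**
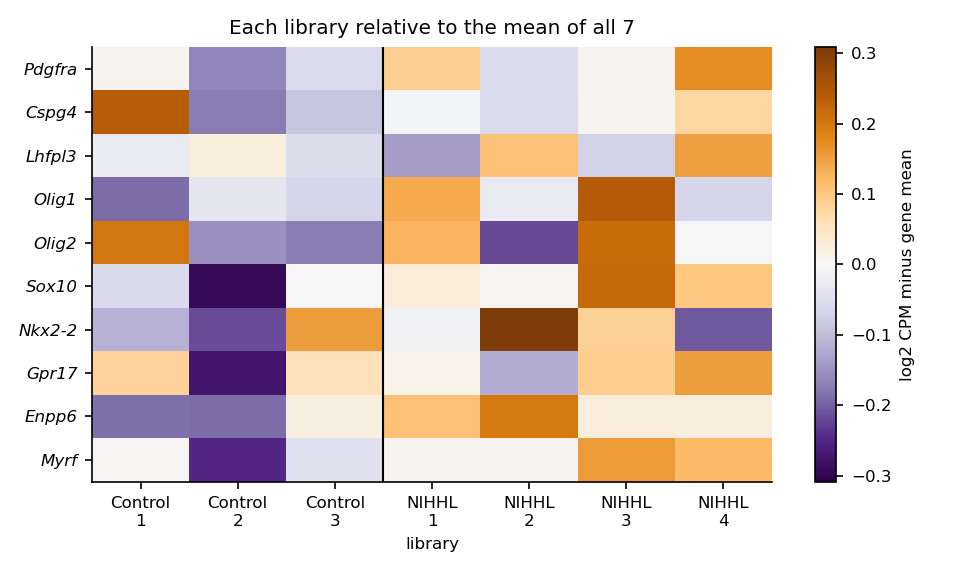
Deviation of each library's log2 CPM from the gene's mean over all 7 libraries (colour scale, log2 units) for the 10 genes in rows and the libraries in columns, with a line between Control and NIHHL. The column of Control replicate 2 is below the mean for 9 of 10 genes, and the columns of NIHHL replicates 3 and 4 differ in which genes are high.

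Among the 45 pairs of the 10 genes, 33 had a positive Pearson correlation of log2 CPM over the 7 libraries, with a median of 0.34. The pair with the highest correlation was Sox10 and Myrf, at r = 0.96 (exact permutation p = 0.00139, adjusted over the 45 pairs 0.0625) and Spearman's rho = 0.96 (exact permutation p = 0.00278, adjusted 0.125). It was singled out for its value, and after adjustment 0 of the 45 pairs passed. With the group means taken out r was 0.93, and without the 2 libraries farthest from the median of Sox10 it was 0.76 over 5 libraries. The ratio of Myrf to Sox10 CPM stayed between 1.57 and 1.72 in the 7 libraries. Olig2 and Lhfpl3 had the lowest correlation, -0.50, and Olig1 and Olig2 had 0.34. The values of a library share its scaling and its mix of tissue.

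**Figure D4:**
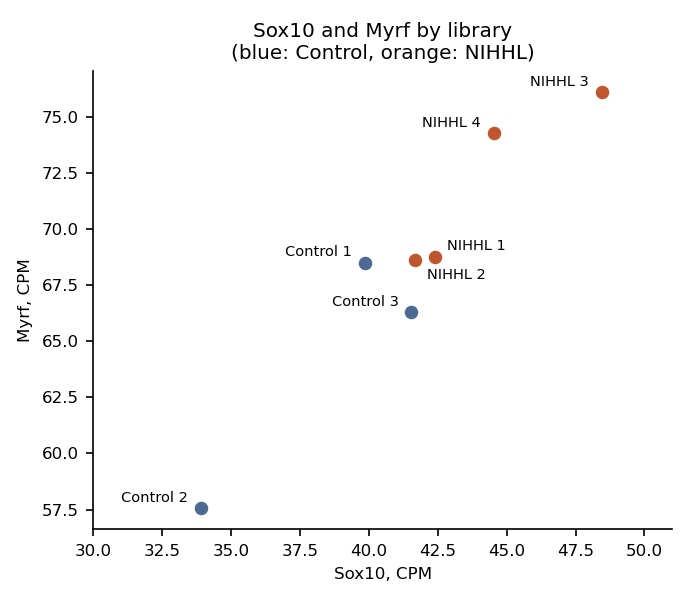
Level of Myrf (vertical axis, CPM) against that of Sox10 (horizontal axis, CPM), each point 1 of the 7 libraries; neither axis starts at 0. Control replicate 2 is lowest for both genes, at 33.9 and 57.6 CPM, and NIHHL replicate 3 highest for both, at 48.5 and 76.1 CPM.

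Levels can be set against each other between genes only per length, here as CPM per kilobase of the union of exons in GENCODE M21, which may be longer than the transcript in use. On that scale Olig1, a gene of 1 exon, was the highest at 48.4 ± 4.95 (mean ± SD over 7 libraries). Gpr17 at 13.8 ± 1.34 and Sox10 at 13.7 ± 1.46 followed and did not differ beyond their spread. Olig2 at 9.26 ± 1.18 and Myrf at 8.01 ± 0.700 came next, then Pdgfra at 6.97 ± 0.529 and Lhfpl3 at 6.84 ± 0.488. Within each of these 2 neighbouring pairs the difference was also smaller than the sum of their SDs. Enpp6 at 1.61 ± 0.157, Nkx2-2 at 1.38 ± 0.190 and Cspg4 at 1.253 ± 0.118 were the lowest and lay close together. In Control and in NIHHL the mean of Olig1 was 45.1 ± 2.54 and 50.9 ± 5.09 CPM per kilobase.

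Other genes of the lineage were taken from lists, and 0 genes of any list were called by edgeR. The other precursor genes, 14 of 14 tested, were split evenly, with 7 higher and 7 lower in NIHHL and a median log2 fold change of -0.01. The median moved to 0.05 with Control replicate 1 left out and to 0.04 with NIHHL replicate 4 left out. Several of these genes, among them Ptprz1, Bcan and Tnr, are not limited to precursors, so the split is not a measure of precursors alone. Ccnd1, the cyclin through which mitogens drive the cell cycle, had a log2 fold change of 0.12 (SE 0.08), and Pcdh15, a protocadherin, one of -0.21 (SE 0.17). The other genes of committed precursors were higher in 11 of 12 tested of 14 listed, with a median of 0.12, and 0.08 without Control replicate 2. In that list the receptor Gpr37 was at 0.20 (SE 0.09) and the adhesion protein Tns3 at 0.14 (SE 0.07), and Tns3 stood at 105.1 ± 1.43 CPM in Control and 115.7 ± 6.88 CPM in NIHHL. Mature oligodendrocytes also express some genes of that list, Gpr37 and Sirt2 among them, so it does not mark committed precursors alone. Bmp4, a ligand made by committed precursors, had the largest value of that list, 0.55 (SE 0.32), at 1.01 to 3.72 CPM, and is named for its value.

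Of the other regulators of the lineage, 11 of 16 tested were higher and the median was 0.05, and -0.0034 without Control replicate 2. Tcf7l2, a Wnt effector of differentiating oligodendrocytes that some neurons also express, stood at 3.24, 2.69 and 4.48 CPM in Control and at 5.43, 4.83, 5.12 and 4.48 CPM in NIHHL. Its lowest NIHHL library exceeded its highest Control library by less than the last digit printed. The log2 fold change was 0.52 (SE 0.19), with an adjusted p = 0.996 by edgeR, and it was the 1 regulator with an unadjusted p under 0.05. Zfp536, a zinc finger factor, had a log2 fold change of 0.15 (SE 0.09). Without both Control replicate 2 and NIHHL replicate 4, 7 of the 16 regulators were higher.

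Of 14 genes listed as holding differentiation back, 8 were higher, with a median log2 fold change of 0.06. That role is not established for all 14: Axin2 at 0.11 (SE 0.10) and Tcf4 at 0.05 (SE 0.09), both among the 8, are not plain inhibitors. Id4, which binds basic helix-loop-helix partners and blocks them and which astrocytes also express, was at 83.6 ± 10.3 CPM in Control and 99.1 ± 5.07 CPM in NIHHL (log2 fold change 0.25, SE 0.09, edgeR adjusted p = 0.996). Lingo1, a neuronal and glial membrane protein that inhibits differentiation, was at 163.5 ± 7.49 and 149.2 ± 5.97 CPM (-0.13, SE 0.07). The groups did not overlap for 2 of the 14, Id4, higher in NIHHL, and Lingo1, lower, where 5.20% of all genes did not overlap. Id4 had an unadjusted p = 0.018 by edgeR, the 1 of this list under 0.05. Mitogens, hormone receptors and growth factor receptors were higher in 11 of 17, with a median of 0.08. Fgfr2, a fibroblast growth factor receptor, had 0.18 (SE 0.10) and Erbb2, a neuregulin co-receptor, 0.37 (SE 0.21). Pdgfa, the ligand of the receptor that Pdgfra encodes, had -0.11 (SE 0.10) and is named for its role. Without Control replicate 2 the medians of the list of 14 and of the mitogens and receptors were both -0.01. Without Control replicate 3 that of the mitogens and receptors was 0.16.

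Genes of mature oligodendrocytes and myelin were higher in 23 of 25, with a median log2 fold change of 0.19, against 0.12 for the 10 genes of precursors and differentiation. At an unadjusted p under 0.05 there were 8 of the 25, where 3.63% of all genes were. That count rested on single libraries: leaving out either Control replicate 1 or Control replicate 2 gave 0, and leaving out Control replicate 3 gave 15. Leaving out NIHHL replicate 3 gave 1, NIHHL replicate 1 gave 3 and NIHHL replicate 4 gave 4. The list summed to 8269 to 10260 CPM in Control and 9581 to 11030 CPM in NIHHL, and the groups overlapped in the sum and in all 25 genes. Mog stood at 80.1, 84.7 and 98.6 CPM in Control and at 106.5, 96.9, 108.1 and 100.03 CPM in NIHHL. Mobp stood at 1099 to 1369 CPM in Control and 1322 to 1514 CPM in NIHHL. The median of the myelin list was 0.29 without Control replicate 3 and 0.12 without Control replicate 2, and the difference between its median and that of the 10 genes was not tested.

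**Figure D5:**
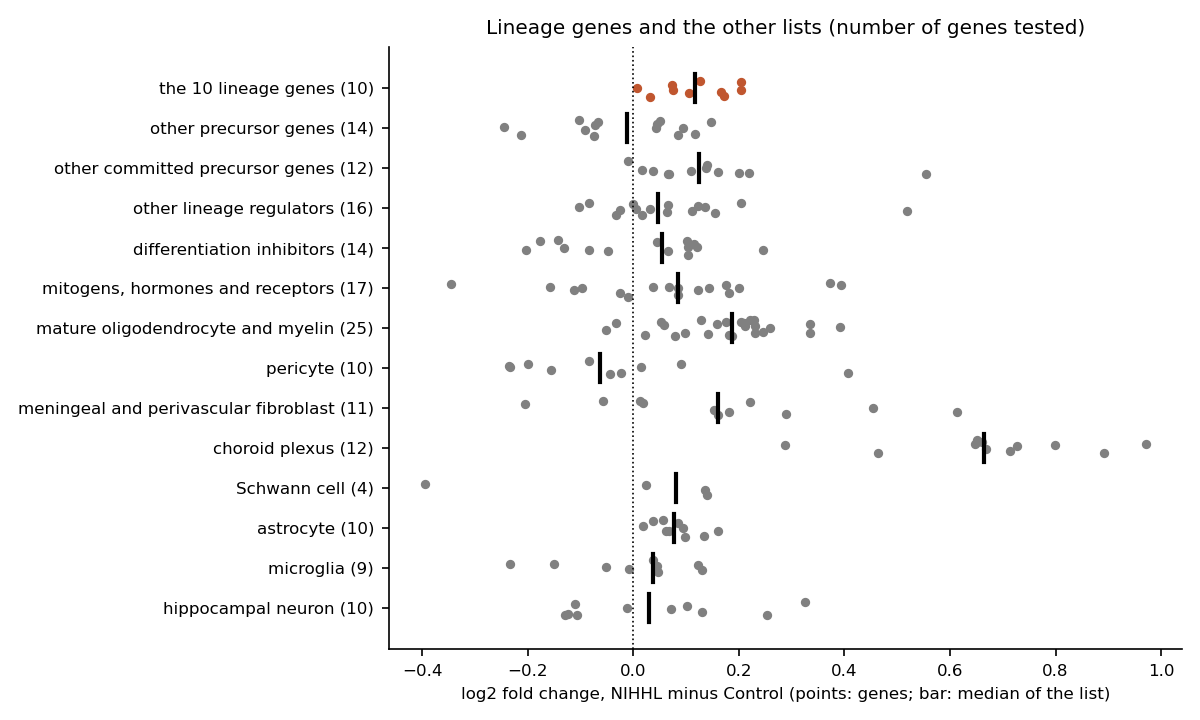
Log2 fold change (horizontal axis, NIHHL minus Control) of each tested gene of the 10 lineage genes and of 13 other lists, with a bar at each list's median. The median of the 10 lineage genes is 0.12, that of mature oligodendrocyte and myelin genes 0.19 and that of other precursor genes -0.01.

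Some of the 10 genes are not limited to the oligodendrocyte lineage, so markers of other cells that carry them were measured. Pericyte markers, beside Cspg4, were higher in 3 of 10, with a median of -0.06, and summed to 149.7 to 179.9 CPM in Control and 146.2 to 155.8 CPM in NIHHL. Control replicate 1, the highest library for Cspg4, was also the highest for this sum. Pdgfrb, a receptor of pericytes that is not limited to them, was at 17.7 to 19.7 CPM in Control and 17.8 to 21.2 CPM in NIHHL. The pericyte genes with the smallest p were Rgs5 at -0.16 (SE 0.08) and Ndufa4l2 at 0.41 (SE 0.31). Without Control replicate 1 the pericyte list was higher in 6 of 10, with a median of 0.05. The part of pericytes in the level of Cspg4 was not tested.

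Fibroblasts of meninges and vessels, which carry Pdgfra, were read from 11 markers, of which 9 were higher, with a median of 0.16. They summed to 147.2 to 256.7 CPM in Control and 183.1 to 393.5 CPM in NIHHL, and the sum was highest in NIHHL replicate 1, whereas Pdgfra was highest in NIHHL replicate 4. A single gene, the growth factor gene Igf2, which choroid plexus also expresses, supplied 253.4 of the 393.5 CPM in NIHHL replicate 1 and 154.1 of the 256.7 CPM in Control replicate 2, and is named for these values. The fibroblast genes with the smallest p were Ogn at 0.45 (SE 0.23) and Mgp at 0.29 (SE 0.18), and their part in the level of Pdgfra was not tested. Dcn, taken as a marker of these cells, was at 50.6 ± 5.39 CPM in Control and 51.2 ± 9.61 CPM in NIHHL. Whether it came from these cells alone was not tested. The median of this list was 0.48 without Control replicate 3 and 0.04 without Control replicate 2.

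Schwann cells of the peripheral nerve also express Sox10. Foxd3, a factor of their neural crest origin, had no count in any library, which allows up to 0.202 CPM in the shallowest library for counting error only. Of the 7 Schwann cell markers 4 were tested, 3 of them higher, with a median of 0.08, and 0.018 without NIHHL replicate 2 and 0.0029 without NIHHL replicate 4. Their summed level was 73.7 to 78.7 CPM in Control and 73.1 to 83.9 CPM in NIHHL, most of it from Drp2, which is not limited to Schwann cells. The markers with the smallest p were Prx at -0.40 (SE 0.36) and Cdh19 at 0.14 (SE 0.16).

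Among the remaining markers, astrocyte genes were higher in 10 of 10, with a median of 0.08, and summed to 5073 to 6313 CPM in Control and 5706 to 6237 CPM in NIHHL. Without Control replicate 2 they were higher in 6 of 10, with a median of 0.025, and without Control replicate 1 the median was 0.14. Astrocytic Gfap had 0.16 (SE 0.09) and Gjb6 0.13 (SE 0.08). Microglia genes were higher in 5 of 9 (median 0.04; C1qa 0.12, SE 0.08, and Cx3cr1 0.13, SE 0.10), at 475 to 513 CPM in Control and 444 to 559 CPM in NIHHL, and in 2 of 9 without NIHHL replicate 2, with a median of -0.04. Hippocampal neuron genes were higher in 5 of 10 (median 0.03; Dsp 0.32, SE 0.18, and Prox1 0.25, SE 0.17), and in 3 of 10 without Control replicate 3, with a median of -0.06. Choroid plexus genes were higher in 12 of 12, with a median of 0.66. This median rested on single libraries: leaving out Control replicate 2 gave 2.12 and NIHHL replicate 2 gave 1.03. Leaving out Control replicate 3 gave 0.36, Control replicate 1 gave 0.19 and NIHHL replicate 1 gave 0.18. Choroid plexus genes included Tmem72 at 0.29 (SE 0.19) and Prlr at 0.97 (SE 0.93), and Ttr took 0.00561% to 0.788% of the counts of a library. Tmem72 varied far less than Ttr, from 100.2 to 172.7 CPM against 56.3 to 7826 CPM. In Control replicate 1 Tmem72 supplied 103.4 of the list's 205.2 CPM, and whether it came from choroid plexus there was not tested. None of these genes was called.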

How the data were processed

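Polyadenylated RNA of mouse hippocampus was sequenced in 3 Control and 4 NIHHL libraries, grouped by their titles. Expected counts for each gene, unscaled, were deposited, and 90.7% of the values are whole numbers. Tools listed without a role, per the submitters' processing notes, are HISAT2, Bowtie2 2.2.8, DESeq2 and StringTie 1.3.1. The sources used here give neither the counting method nor the strand setting, build or annotation.

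The counts were rounded, genes were filtered with edgeR's filterByExpr (minimum count 10), and 14417 genes, holding 99.96% of the counts, were tested with edgeR's quasi-likelihood test with robust moderation and Benjamini-Hochberg adjustment over all of them (threshold 0.05). The SE was derived from the fold change and its F statistic, and the 95% intervals use it with the moderated degrees of freedom. For log2 CPM a prior count of 2 was added. Exon lengths and positions are from GENCODE M21 (GRCm38). The fit was checked on simulated data, in which the libraries had no length trend. It called 3 of 50 genes changed 1.25-fold, 33 of 50 changed 1.5-fold and 48 of 50 changed 2-fold, and 9 of its 143 calls were false. A change of 1.25-fold was therefore mostly missed. Many genes were changed at once in the simulated data, which eases the adjusted threshold, and genes as low as Nkx2-2 were not among them. The share of changes found may therefore be lower in the real data. Software was R 4.3.3, edgeR 4.0.16, limma 3.58.1 and DESeq2 1.42.0. Alternatives were relative log expression scaling, DESeq2, limma-voom, no filter, a replicate block, removal of a length trend, and leaving out libraries.

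The 10 genes and the lists were chosen with earlier results of these data known. Beyond the 10, the genes named are the 2 of each list with the smallest p, genes said to be named for a role or value, the 3 genes most like each role group over the libraries, and Ttr, Pdgfrb and Dcn as markers.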

Additional observations from a re-analysis of the deposited data

Results flagged for a closer look

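In 2 of 55 groups of 4 libraries tested, 1 library stood far from the others by the Dixon gap, both times NIHHL replicate 4 and an astrocyte marker. Gfap was at 491.6 CPM there and at 581.1 CPM in the nearest NIHHL library, a gap of 0.84 of the range. Gjb6 was at 59.7 CPM there and at 67.5 CPM in the nearest library, a gap of 0.832 of the range. Chance alone gives such a gap in about 1 of 20 groups.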

How the results depend on the processing

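None of the 10 genes was called in any of 140 fits of single genes under the 14 alternatives, and in 130 of them the NIHHL mean was higher. Over all genes, DESeq2 called 4 and the fit without both Control replicate 2 and NIHHL replicate 4 called 1, against 0 by edgeR with all libraries. Leaving out 1 library at a time moved the median of the 10 between 0.07 and 0.16, and it was 0.06 without both libraries. Cspg4 ran from -0.07 to 0.14 over these omissions, Lhfpl3 from -0.014 to 0.081 and Gpr17 from -0.03 to 0.13. Without both libraries Cspg4 was at -0.094 and Gpr17 at -0.069, and with the length trend removed Cspg4 was at -0.014. The causes were not tested. Libraries with the same replicate number did not deviate together (correlations of -0.52, -0.33 and -0.04). This cannot show whether the numbers pair them, because a library's length trend and tissue mix also enter its deviations. With a replicate block, which drops NIHHL replicate 4, 0 genes were called (335 at an unadjusted p under 0.05), the median of the 10 was 0.12, Cspg4 was at -0.011 and Lhfpl3 at -0.016. Depth limits Nkx2-2 and Enpp6 most.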

Other observations

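The genes whose levels over the 7 libraries were most like the mean log2 CPM of each role group were taken from 11418 genes of at least 5 CPM, as a description of likeness that the shared scaling and length trend of a library can set. For the precursor surface genes they were Atrn, Esyt2 and AI593442, each at a Pearson correlation of 0.99, and 305 genes exceeded 0.9. For the factors they were Tmem231 at 0.97, Gal3st1 at 0.96 and Mfge8 at 0.96, and 30 genes exceeded 0.9. Gal3st1 encodes the sulfotransferase that makes the myelin lipid sulfatide. For the differentiating genes they were Plekhg1, Dennd5a and Slc44a1, each at 0.98, and 86 genes exceeded 0.9. Slc44a1 encodes a choline transporter.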
